A study of Mus musculus with 6 samples.

Results

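The neurofilament, stathmin and axon growth genes are 10 genes of the neuronal cytoskeleton and growth cone, Nefl, Nefm, Nefh, Stmn2, Stmn3, Gap43, Tubb3, Dcx, Mapt and Map1b, given as a list of symbols, of 18193 genes with a probe set of their own. Every probe set that the platform annotation assigns to 1 of them alone was taken, which gave 21 of the 45101 probe sets on the array. None was shared with another gene. Of these, 17 probe sets in 9 genes had a mean log2 signal over 7 in at least 1 genotype, the filter of the study's methods, which 20888 probe sets passed in all. The only probe set of Nefh, 2 of the 4 of Dcx and 1 of the 3 of Map1b lay below it.

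Retinas were profiled from 3 OC1-KO embryos, which lack the transcription factor gene Onecut1, and 3 WT littermates, with 1 Affymetrix mouse genome array per embryo. The labels put the stage at E14, and the title of the series at E14.5. All 6 embryos had a mixed strain background, from an Onecut1-deficient line made with R1 ES cells in "Swiss" mice and later crossed to C57Bl/6, and the labels name no treatment. The deletion is not limited to a cell type, so OC1-KO embryos lacked Onecut1 outside the eye as well, and embryos were numbered 1 to 3 within each genotype.

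Neurofilaments are the intermediate filaments of neurons, built from light, medium and heavy chains that fill the axon and set its calibre. Stathmins bind tubulin dimers and promote the shrinkage of microtubules, whereas doublecortin, tau and Map1b bind microtubules and stabilize or bundle them, and Gap43 is a membrane protein of growth cones. In the embryonic retina the earliest neurons to send out long axons are the ganglion cells, in which such genes are strongly expressed, although Tubb3, Stmn2 and Dcx are also expressed by other newborn neurons.

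On the brighter Onecut1 probe set the log2 signals were 9.02, 8.31 and 9.67 in OC1-KO embryos 1 to 3, against 9.25, 8.76 and 9.0 in WT embryos 1 to 3. Whether its probes fall within the deleted sequence is not stated in the sources used, and these signals are no check of the knockout. Between 43.4% and 46.7% of the probe sets of an array lay over the filter. Of the retinal marker lists, 7 of 8 genes of progenitors, 6 of 6 of neurogenic progenitors, 7 of 10 of ganglion cells, 6 of 7 of photoreceptor precursors and 6 of 8 of amacrine and horizontal cells passed it. Of tissues around or within the eye, 2 of 8 lens genes, 3 of 8 of the pigment epithelium, 1 of 7 of red blood cells, 2 of 6 of the endothelium, 2 of 7 of macrophages, 1 of 8 of the periocular mesenchyme and 1 of 7 of astrocytes and optic nerve glia did. No signal was 0 on any array.

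The genomic positions below are those of the RefSeq annotation of GRCm38.p6. The promoter table used here held 5 windows, from 250 bases before to 50 bases after a transcription start, for 4 of the 10 genes, Stmn3, Tubb3, Map1b and Dcx, with 2 overlapping windows for Dcx. The 150 bases upstream of the start are shown for 3 genes that differed in how they varied between embryos: Map1b, which had the widest range on its brightest probe set, Tubb3, which was high in the same embryos of both genotypes, and Dcx, which varied little on its brightest probe set. Capitals mark the word TATAAA.
Map1b: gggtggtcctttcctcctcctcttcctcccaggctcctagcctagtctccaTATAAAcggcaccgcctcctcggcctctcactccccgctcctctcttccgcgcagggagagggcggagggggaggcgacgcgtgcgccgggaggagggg
Tubb3: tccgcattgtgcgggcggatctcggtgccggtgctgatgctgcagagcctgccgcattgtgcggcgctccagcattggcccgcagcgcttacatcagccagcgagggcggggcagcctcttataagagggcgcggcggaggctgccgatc
Dcx: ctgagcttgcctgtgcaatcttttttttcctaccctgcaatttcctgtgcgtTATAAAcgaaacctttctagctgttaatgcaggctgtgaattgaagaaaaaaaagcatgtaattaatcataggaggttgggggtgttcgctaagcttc
These lie on the minus strand at chr13:99516603-99516752, on the plus strand at chr8:123411403-123411552 and on the minus strand at chrX:143933220-143933369. TATAAA was searched on both strands and stood in 3 of the 5 windows, those of Map1b and both of Dcx, which overlap, with its first base 99 bases before the start in Map1b and 98 in the Dcx window shown, against 13.6% of all 32851 windows in the table. ATCGAT and ATCAAT, words bound by Onecut factors, were in none of the 5, and in 0.925% and 7.54% of all windows. Both words were searched on both strands, and neither holds TATAAA. A missing word says only that these letters are not in this window.

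The first comparison asks whether the retina that lacks Onecut1 had other signals of these cytoskeletal genes than the WT retina. No member differed between OC1-KO and WT at an adjusted p under 0.05 by limma, and neither did any other probe set (0% of the 20888 called). Of the 17 probe sets over the filter, 12 averaged higher in OC1-KO and 5 lower, beside 9968 higher and 10920 lower of all 20888. Their differences ran from -0.13 to 0.44 with a median of 0.05 on the log2 scale, beside -0.01 over all probe sets. The 17 count some genes more than once. On the brightest probe set of each of the 9 genes, 4 were higher and 5 lower, with a median of -0.01. With 1 array left out, the median of the 17 ran from -0.088 without WT embryo 2 to 0.19 without OC1-KO embryo 2, and was also below 0 without OC1-KO embryo 3 (-0.050). The median size of the difference was 0.05, against 0.10 over all probe sets. At an unadjusted p under 0.05, limma called 0 of the 17, beside 1.01% of all probe sets, and the methods' t-test called 0, beside 1.51%. Each array measured the RNA of whole retinal tissue, so fewer cells of a type and less RNA per cell cannot be told apart. Of the marker lists of other tissues, that of the pigment epithelium had 7 of its 8 genes higher in OC1-KO, with a median difference of 0.67 on the log2 scale in the fit over all probe sets. Its summed signal over those 8 genes was 581, 743 and 2013 in OC1-KO embryos 1 to 3, against 467, 323 and 853 in WT embryos 1 to 3. Of the 3 over the filter, Dct, Pmel and Ttr, all of which passed it through the OC1-KO mean alone, none had an unadjusted p under 0.05 by limma, and with embryo number as a block Pmel had 0.00258. The part of these cells in the genotype differences was not tested.

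**Figure D1:**
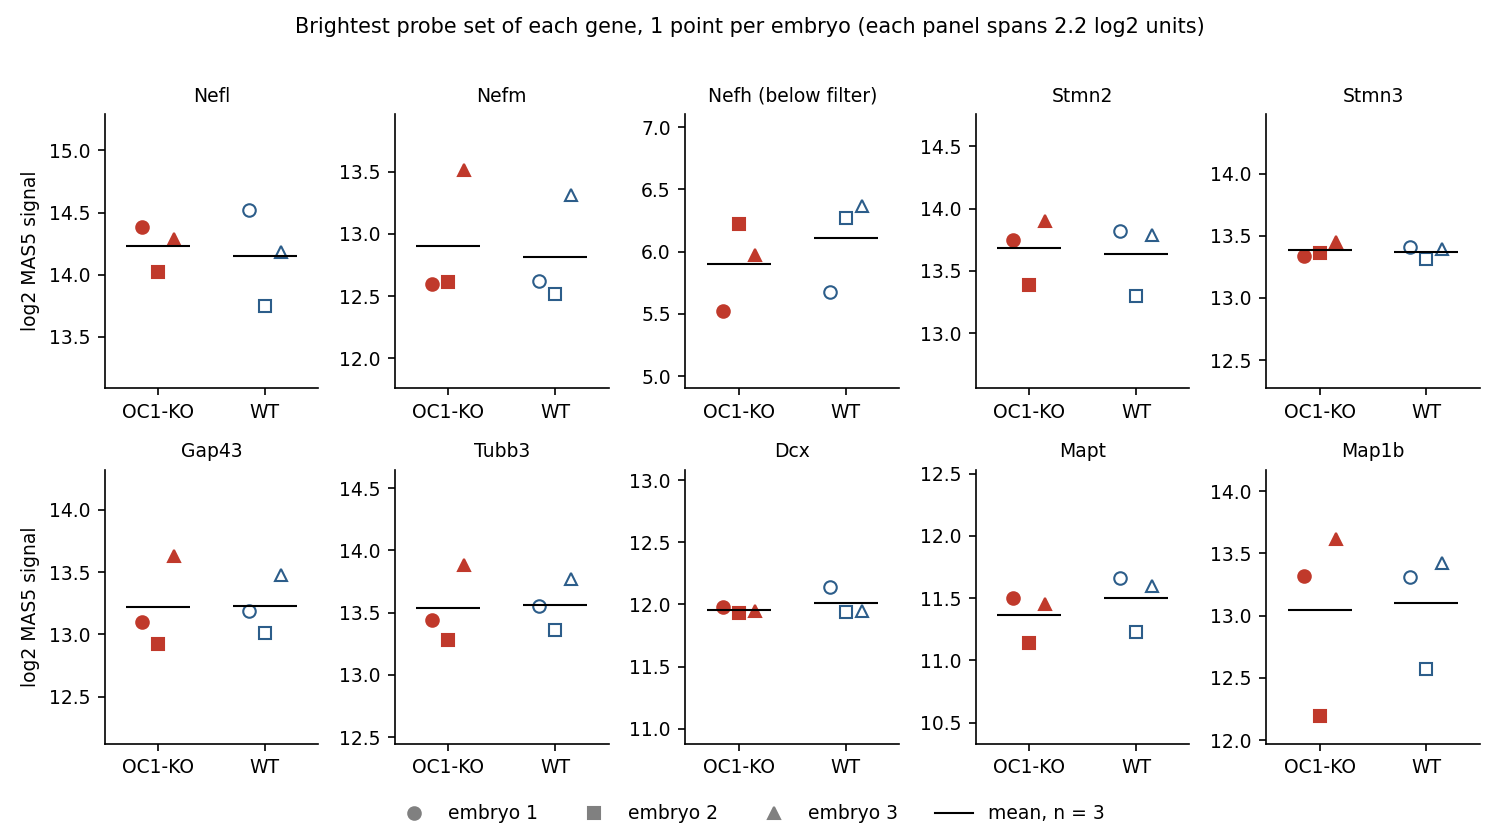
Log2 MAS5 signal of the brightest probe set of each of the 10 genes in OC1-KO (filled) and WT (open) embryos, with marker shapes for embryos 1 to 3 and lines for the mean of 3 arrays. The genotypes overlap in every panel, and the 2 embryos numbered 2 lie below the other 4 in 7 of the 9 genes over the filter, for Dcx by a very small gap.

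Nefl, on chromosome 14 (68083863 to 68089095), encodes the light chain on which neurofilaments assemble. On its brightest probe set, 1426255_at, the log2 signals were 14.38, 14.02 and 14.29 in OC1-KO embryos 1 to 3, against 14.52, 13.75 and 14.18 in WT embryos 1 to 3. The highest and the lowest value both belonged to WT embryos, so the OC1-KO values lay within the WT range. The means were 14.23 ± 0.19 in OC1-KO and 14.15 ± 0.38 in WT (SD, n = 3 each), a difference of 0.08 with a 95% confidence interval from -0.45 to 0.62. On 1454672_at the difference was 0.03 (SE 0.17), with 13.36, 13.25 and 13.40 in OC1-KO and 13.59, 13.20 and 13.13 in WT.

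Nefm, the medium chain, lies on the same chromosome (68119545 to 68125004). Its probe set 1422520_at gave 12.60, 12.61 and 13.51 in OC1-KO embryos 1 to 3, against 12.62, 12.52 and 13.31 in WT embryos 1 to 3. The pattern was the same in both genotypes: the embryos numbered 3 stood well above the others. The genotype means, 12.90 ± 0.52 in OC1-KO and 12.82 ± 0.43 in WT, differed by 0.09 (95% interval from -0.68 to 0.85). Nefh, on chromosome 11 (4938754 to 4948064), encodes the heavy chain, which in mouse neurons appears later than the others as axons mature. Its probe set 1424847_at lay below the filter in both genotypes, with 5.52, 6.22 and 5.97 in OC1-KO and 5.68, 6.27 and 6.37 in WT, a difference of -0.20 (SE 0.30) in the fit over all probe sets.

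Stmn2 (SCG10), a stathmin of growth cones on chromosome 3 (8509527 to 8561604), has 2 probe sets designed from the same sequence record. On 1423281_at the values were 13.75, 13.39 and 13.90 in OC1-KO embryos 1 to 3, against 13.82, 13.30 and 13.79 in WT embryos 1 to 3, a difference of 0.04 (SE 0.22). On 1423280_at they were 13.21, 13.24 and 13.85 in OC1-KO, against 13.09, 13.06 and 13.68 in WT. The OC1-KO embryo was above the WT embryo of the same number in all 3 pairs on 1423280_at, by 0.12, 0.18 and 0.18, and the difference of 0.16 had an interval from -0.45 to 0.77. The embryos numbered 3 were far above the rest in both genotypes there, and the genotypes overlapped on both probe sets.

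Stmn3 (SCLIP), a neuronal stathmin on chromosome 2 (181306459 to 181314500), was the member with the least spread on its brightest probe set. On 1435113_x_at the signals were 13.34, 13.36 and 13.45 in OC1-KO embryos 1 to 3, against 13.41, 13.31 and 13.39 in WT embryos 1 to 3. The 6 values lay within 0.14 log2 units, and the difference of 0.01 had an interval from -0.30 to 0.33. That suffix marks a probe set whose probes can also match other sequences. On 1460181_at the difference was 0.05 (SE 0.15), with the WT values spread from 12.18 to 12.50 around OC1-KO values of 12.31 to 12.42.

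Gap43, on chromosome 16 (42248552 to 42340651), encodes a growth cone phosphoprotein abundant in extending and regenerating axons. Its probe set 1423537_at gave 13.10, 12.92 and 13.63 in OC1-KO embryos 1 to 3, against 13.19, 13.01 and 13.48 in WT embryos 1 to 3. The OC1-KO embryos 1 and 2 were slightly below their WT counterparts and embryo 3 slightly above. The difference was -0.01 (95% interval from -0.56 to 0.54). Tubb3, the neuronal class of beta-tubulin on chromosome 8 (123411553 to 123422015), gave 13.44, 13.28 and 13.88 in OC1-KO, against 13.55, 13.36 and 13.77 in WT, on 1415978_at. Its order of embryos was the same as that of Gap43, and the difference was -0.03 (95% interval from -0.52 to 0.46).

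Dcx, on chromosome X (143855842 to 143933396), encodes doublecortin, a microtubule-binding protein of migrating and newly formed neurons. On 1418139_at its signals were 11.98, 11.93 and 11.95 in OC1-KO embryos 1 to 3, against 12.14, 11.94 and 11.95 in WT embryos 1 to 3. Apart from WT embryo 1 the values nearly coincided, and the difference was -0.05 (95% interval from -0.38 to 0.28). On 1418141_at the difference was 0.28 (SE 0.33), with 11.11, 9.94 and 10.25 in OC1-KO and values from 9.94 to 10.52 in WT. OC1-KO embryo 1 alone stood above the WT range there, and without it the difference was -0.06. The other Dcx probe sets, 1418140_at and 1448974_at, lay below the filter, with differences of -0.47 (SE 0.45) and 0.04 (SE 0.28). On 1418140_at the means were 6.51 ± 0.87 in OC1-KO and 6.98 ± 0.03 in WT (SD, n = 3 each).

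Mapt, on chromosome 11 (104229409 to 104332090), encodes tau, which binds along axonal microtubules. On its brightest probe set, 1424718_at, the signals were 11.50, 11.14 and 11.45 in OC1-KO embryos 1 to 3, against 11.66, 11.23 and 11.60 in WT embryos 1 to 3. The OC1-KO embryo was the lower one in all 3 pairs, by less than the spread among embryos of a genotype, and the difference was -0.13 (95% interval from -0.57 to 0.31). OC1-KO was lower in all 3 pairs for 1 of the 17 probe sets over the filter, this one, beside 2734 of all 20888. The other 3 Mapt probe sets ran the other way, with differences of 0.05 (1424719_a_at, SE 0.23), 0.13 (1455028_at, SE 0.20) and 0.05 (1417885_at, SE 0.27). On 1417885_at the OC1-KO embryos lay between 9.29 and 9.37, inside a WT range from 8.93 to 9.90. The Mapt probe sets 1424718_at and 1424719_a_at come from the same sequence record, and none of the 4 passed the test.

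Map1b, on chromosome 13 (99421464 to 99516602), encodes a large microtubule-associated protein of growing axons, and its 3 probe sets, all designed from 1 sequence record, did not behave alike. On the brightest, 1450397_at, the signals were 13.32, 12.19 and 13.62 in OC1-KO embryos 1 to 3, against 13.31, 12.57 and 13.42 in WT embryos 1 to 3. The embryos numbered 2 were the lowest in both genotypes, and the difference was -0.06 (95% interval from -1.03 to 0.91).

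On 1421851_at the Map1b signals were 10.27, 10.02 and 10.40 in OC1-KO embryos 1 to 3, against 9.50, 9.90 and 9.96 in WT embryos 1 to 3. All 3 OC1-KO values lay above all 3 WT values there, and the lowest WT embryo was number 1 rather than number 2. The means of 10.23 ± 0.19 in OC1-KO and 9.79 ± 0.25 in WT (SD, n = 3 each) differed by 0.44, a 1.35-fold difference with a 95% interval from 0.993 to 1.85, and an unadjusted limma p of 0.0541 (adjusted p = 1). With embryo number as a block the unadjusted p was 0.0356 (adjusted p = 0.999), the only one of the 17 under 0.05, beside 4.37% of all probe sets. The groups failed to overlap, with OC1-KO higher, for 1 of the 17, beside 1.7% of all probe sets (355 of 20888). With OC1-KO lower they failed to overlap for 0 of the 17, beside 388 of all 20888. OC1-KO was higher in all 3 pairs for 2 of the 17, this one and Stmn2 1423280_at, beside 10.3% of all probe sets. The dim Map1b probe set 1421850_at, below the filter, gave 6.93, 6.95 and 6.80 in OC1-KO, against 6.28, 6.56 and 6.53 in WT. The groups did not overlap there. The difference was 0.43 (SE 0.19, 95% interval from -0.03 to 0.90) in the fit over all probe sets. This probe set measures the same gene on the same arrays, so it is no independent second case. The share of 1.7% covers only probe sets over the filter, and none was counted for those below it.

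**Figure D2:**
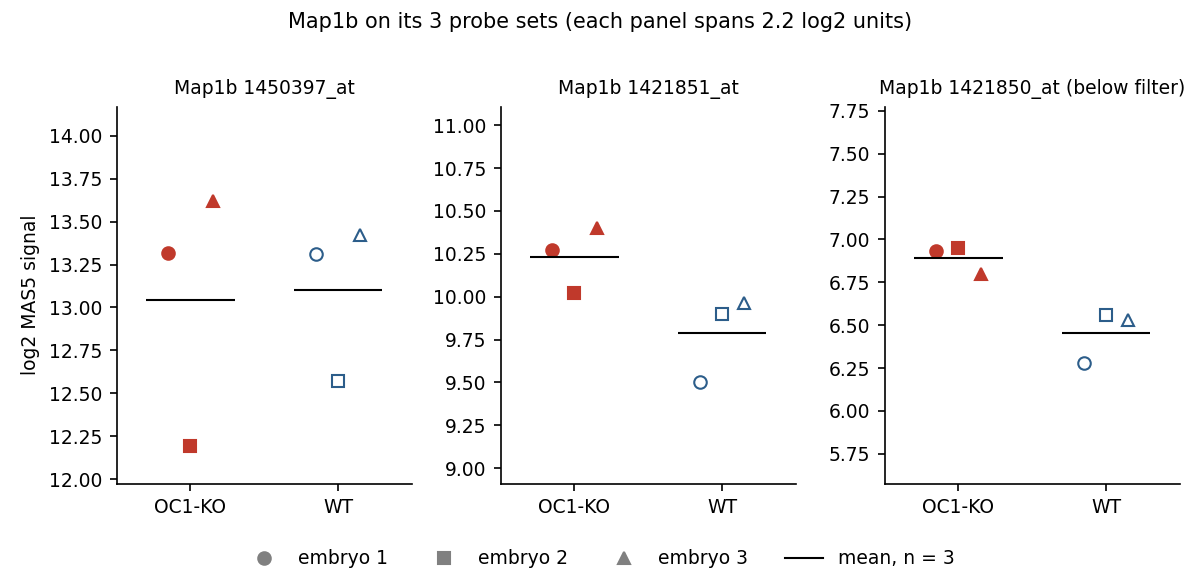
Log2 MAS5 signal of the 3 Map1b probe sets in OC1-KO (filled) and WT (open) embryos, with marker shapes for embryos 1 to 3 and lines for the mean of 3 arrays. The genotypes overlap on 1450397_at, where embryos numbered 2 are low, and do not on 1421851_at and on 1421850_at, which lies below the filter.

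RNA integrity was measured by the 3' to 5' control probe sets, whose Actb log2 ratios were 0.88, 1.11 and 0.45 in OC1-KO embryos 1 to 3, against 1.10, 0.76 and 0.66 in WT embryos 1 to 3. The ratios of the genotypes overlapped, and their part in the differences between Map1b probe sets was not tested.

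**Figure D3:**
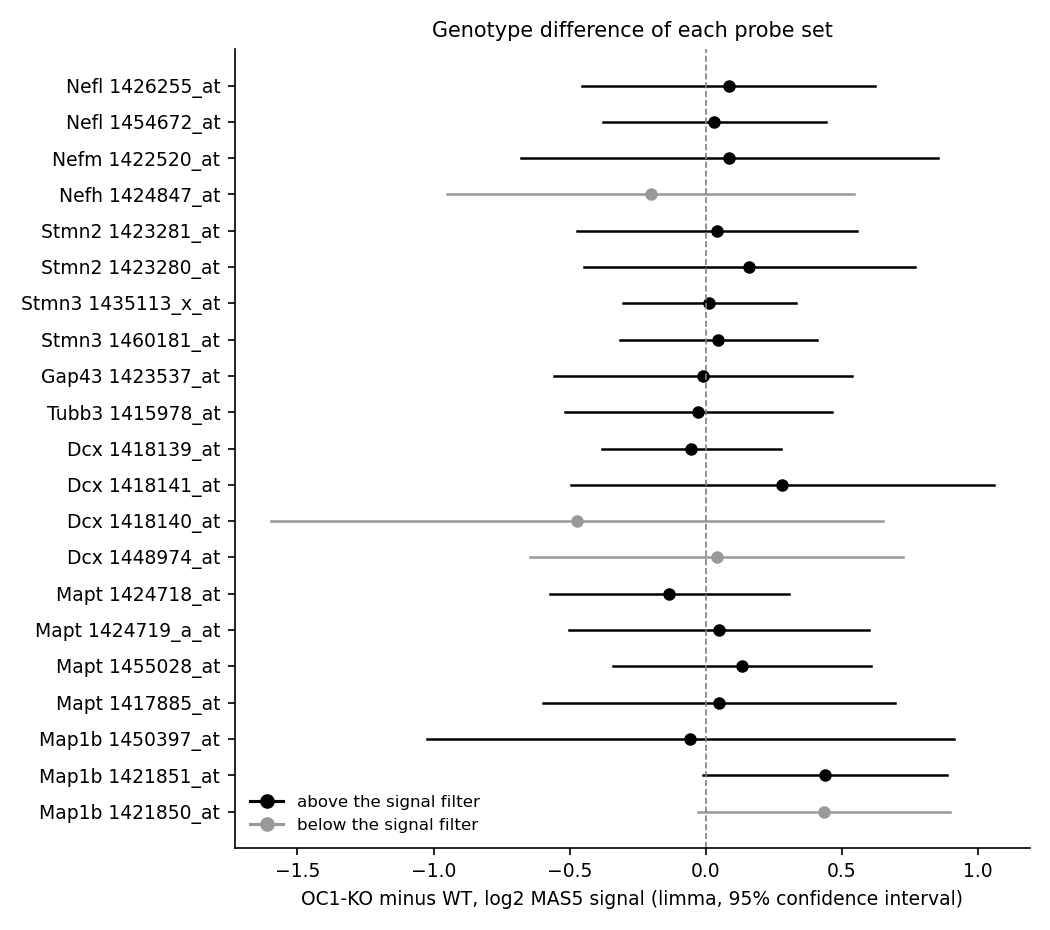
OC1-KO minus WT difference in log2 MAS5 signal of all 21 probe sets, as a point with its 95% confidence interval from limma, those below the filter in grey. All intervals include 0, and that of Map1b 1421851_at reaches it only at its lower end.

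The second comparison asks how these genes varied with embryo number, since arrays of the same number deviated together across the genome. Several members differed more between embryo numbers than between genotypes, with the same embryos high or low in OC1-KO and WT. An F test of embryo number in limma, with genotype in the fit, called 2 of the 17 probe sets at an adjusted p under 0.05, Nefm 1422520_at and Map1b 1450397_at, beside 5.32% of all probe sets. At an unadjusted p under 0.05 it called 8 of the 17, beside 31.9% of all probe sets.

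Nefm averaged 13.41 in the embryos numbered 3 and 12.61 in those numbered 1, a difference of 0.80 (SE 0.14) or 1.74-fold, while number 2 differed from number 1 by -0.05 (limma F test adjusted p = 0.048). Map1b 1450397_at averaged 12.38 in the embryos numbered 2 and 13.31 in those numbered 1, a difference of -0.94 (SE 0.18) or 0.523-fold, and number 3 was above number 2 by 1.14 (limma F test adjusted p = 0.0497). Nefm was thus high in number 3, and Map1b low in number 2. Both calls sat at the threshold and were lost when any 1 of the 6 arrays was left out, with adjusted p under 0.05 in 4 of 13 alternatives each and a range from 0.00569 to 0.899 for Nefm and from 0.00552 to 0.362 for Map1b.

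Stmn2 1423280_at followed the Nefm pattern, with number 3 above number 1 by 0.62 (limma F test adjusted p = 0.068), and Gap43 and Tubb3 had number 3 above number 1 by 0.41 and 0.33 (adjusted p = 0.104 and 0.135). Both arrays numbered 3 lay above the other 4 for 6 of the 17 probe sets, those of Nefm, Stmn2 1423280_at, Gap43, Tubb3, Mapt 1424719_a_at and Map1b 1450397_at, beside 14.9% of all probe sets. Both arrays numbered 2 lay below the other 4 for 10 of the 17, beside 11.3% of all probe sets, namely Nefl 1426255_at, Stmn2 1423281_at, Gap43, Tubb3, both Dcx probe sets over the filter, 3 of the 4 of Mapt and Map1b 1450397_at. Dcx 1418139_at is in this count by a very small gap, with 11.93 and 11.94 in the embryos numbered 2, against 11.95 in both numbered 3. The low values of number 2 were largest for Map1b 1450397_at, followed by Dcx 1418141_at at -0.62 and Nefl 1426255_at at -0.56 against number 1 (limma F test adjusted p = 0.407 and 0.136). The Dcx value rested on OC1-KO embryo 1, which stood at 11.11, against 9.94 in OC1-KO embryo 2, while both WT embryos numbered 1 and 2 were close to the lower of these. These counts of embryos above or below the others were chosen after the values were seen.

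**Figure D4:**
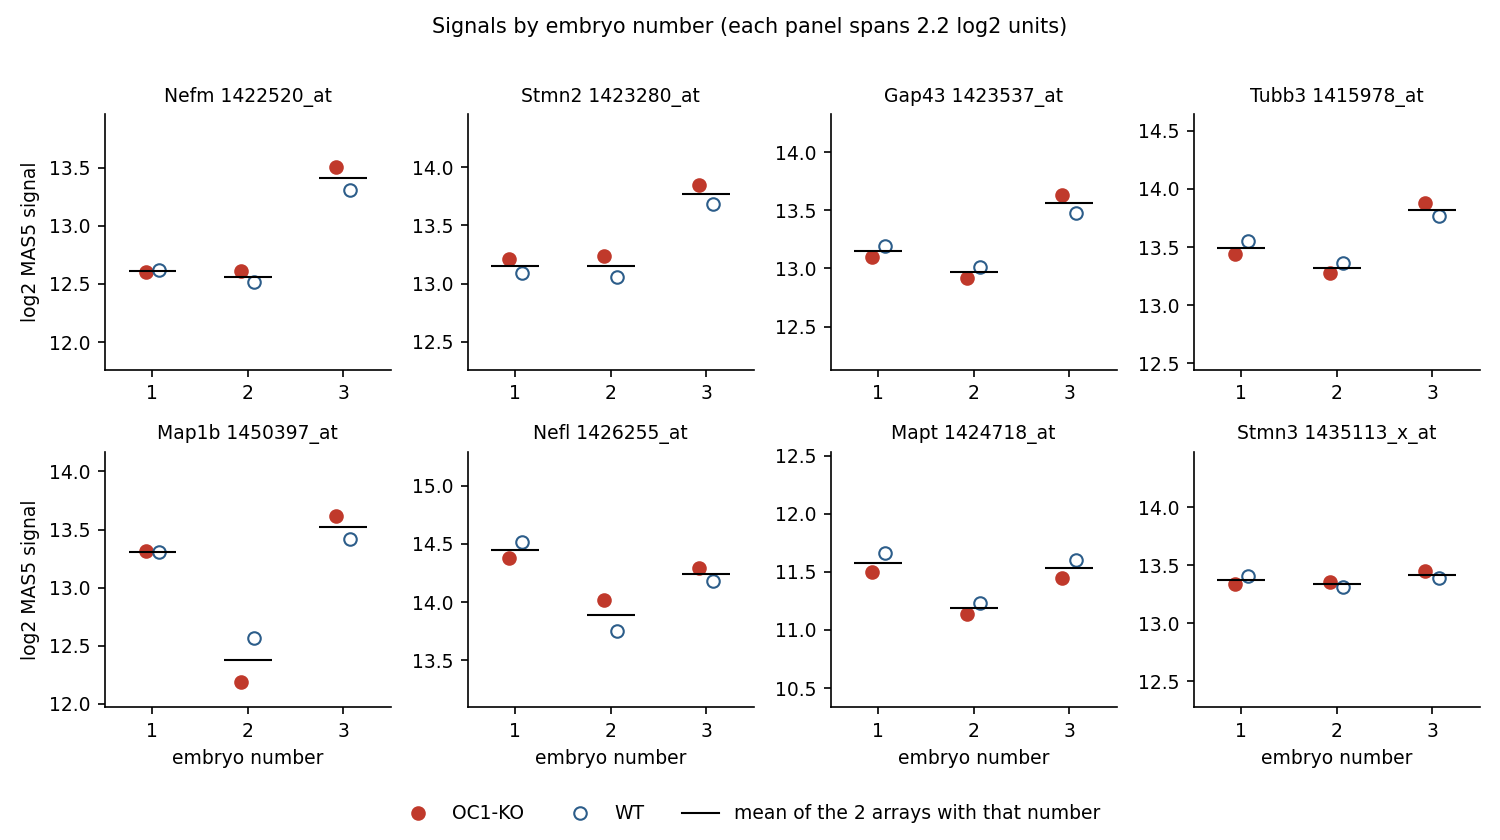
Log2 MAS5 signal by embryo number for 8 probe sets, with OC1-KO (filled) and WT (open) embryos and lines for the mean of the arrays with that number. Nefm, Stmn2 1423280_at, Gap43 and Tubb3 were highest in embryo 3 of both genotypes, Map1b 1450397_at, Nefl and Mapt were lowest in embryo 2, and Stmn3 stayed within 0.14 log2 units.

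The members did not all share these shifts. Stmn3 1435113_x_at had number 2 and number 3 within 0.04 of number 1 (limma F test adjusted p = 0.873), and Dcx 1418139_at within 0.12 (adjusted p = 0.726). The median size of the difference between number 3 and number 1 was 0.21 over the 17 probe sets, against 0.27 over all 20888. Centred on its mean over the arrays, the average profile of the 10 genes, 1 probe set each, was -0.04, -0.23 and 0.23 in OC1-KO embryos 1 to 3, against 0.05, -0.21 and 0.19 in WT embryos 1 to 3. The embryos numbered 3 were high and those numbered 2 low in both genotypes.

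The genes with the most similar profile over the 6 arrays, by the smallest root mean square difference from that average among 10520 genes, were Msi1 (0.0256), Ube2o (0.0289), Galt (0.0293), Mgme1 (0.0361) and Coq8b (0.0371 log2 units). Msi1, an RNA-binding protein gene of neural progenitors, gave 13.23, 12.99 and 13.46 in OC1-KO embryos 1 to 3, against 13.30, 13.07 and 13.40 in WT embryos 1 to 3. Its low and high embryos were those of the members, which the choice by the most similar profile fixed in advance. Ube2o encodes a ubiquitin-conjugating enzyme, Galt an enzyme of galactose metabolism, Mgme1 a mitochondrial exonuclease and Coq8b a protein of coenzyme Q synthesis.

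Some marker lists of other tissues also varied with the embryo number. The sums below cover every gene of a list with a probe set of its own, whether or not it passed the filter. Both arrays numbered 3 lay above the other 4 for 6 of 7 lens genes, 5 of 5 of red blood cells, 6 of 7 of the periocular mesenchyme and 5 of 8 of the pigment epithelium.

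The lens genes summed to 125, 248 and 9512 in OC1-KO embryos 1 to 3, against 198, 115 and 20200 in WT embryos 1 to 3. Those of red blood cells summed to 61.3, 730 and 23980 in OC1-KO, against 372, 111 and 16560 in WT, and those of the periocular mesenchyme to 440, 681 and 2405 in OC1-KO, against 679, 484 and 2851 in WT. The 3 sums were highest in embryo 3 of each genotype, whereas the endothelial sum was lowest there, with 2464, 1629 and 1593 in OC1-KO, against 2216, 1952 and 1526 in WT. The 2 endothelial genes over the filter went opposite ways. Between number 3 and number 1 the brighter, Kdr, differed by -0.84 and Cldn5 by 0.66, so the sum follows Kdr. The macrophage genes summed to 1043, 893 and 1192 in OC1-KO, against 1017, 934 and 1097 in WT, and those of astrocytes and optic nerve glia to 1113, 1109 and 1030 in OC1-KO, against 969, 978 and 1095 in WT.

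The ganglion cell markers summed to 32800, 33020 and 38080 in OC1-KO, against 33000, 34350 and 38450 in WT. Their sum was highest in embryo 3 of both genotypes, and 3 of the 7 genes over the filter had both arrays numbered 3 above the other 4. The median difference between number 3 and number 1 over those 7 genes was 0.32, beside -0.04 over all probe sets over the filter. Elavl4, Pou4f1, Rbpms, Ebf1 and Ebf3 differed by 0.72, 0.61, 0.58, 0.32 and 0.17, and Isl1 and Sncg by -0.05 and -0.07. The retinal progenitor markers summed to 75620, 65800 and 89120 in OC1-KO, against 87000, 59930 and 74120 in WT, lowest in embryo 2 of both. Of the 7 progenitor genes over the filter, 3 had both arrays numbered 2 below the other 4. The median difference between number 2 and number 1 over these 7 was -0.33, beside -5.0e-05 over all probe sets over the filter. Ccnd1, Fgf15, Sfrp2, Rax and Hes1 differed by -0.60, -0.51, -0.40, -0.33 and -0.03, and Sox2 and Lhx2 by 0.38 and 0.11. The Actb 3' to 5' ratio was lowest in embryo 3 of both genotypes. The part of these tissues, of cell makeup and of RNA integrity in the members' variation was not tested.

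The related genes were also without a call between genotypes. Of 66 genes in 8 lists of neighbouring cytoskeletal and axonal functions, 62 were measured over the filter. Of these, 39 averaged higher in OC1-KO and 23 lower, beside 9968 higher and 10920 lower of all 20888 probe sets. The median difference was 0.03 log2 units (-0.022 without WT embryo 2 and -0.0093 without OC1-KO embryo 3, up to 0.083 without OC1-KO embryo 2). By limma 0 of the 62 had an adjusted or unadjusted p under 0.05, beside 0% and 1.01% of all probe sets. The smallest unadjusted p was that of Kif1a (0.138), a kinesin that carries synaptic vesicle precursors along axons, with 8.12, 8.27 and 8.77 in OC1-KO embryos 1 to 3, against 7.77, 8.08 and 8.20 in WT embryos 1 to 3. Its difference of 0.37 (SE 0.22) was the largest in size of the 62, and with embryo number as a block its unadjusted p was 0.0309, the only one under 0.05.

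Among the other intermediate filaments, 1 of 3 genes measured was higher and 2 were lower, with Vim, the filament of progenitors, at 0.15 (SE 0.17) and Ina, alpha-internexin, which assembles with the neurofilament chains, at -0.14 (SE 0.20). Prph lay below the filter. The remaining stathmins, Stmn4 and Stmn1, differed by 0.21 (SE 0.17) and 0.08 (SE 0.25). Of 9 tubulin genes, 6 were higher and 3 lower, with a median of 0.02, Tubb6 at 0.35 (SE 0.38) and Tubb4a at -0.20 (SE 0.19). None of these passed the test. Tuba1b had no probe set of its own.

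Of 13 genes for microtubule-associated proteins, 6 were higher and 7 lower, with Map7, a protein that binds along microtubules and recruits kinesin, at -0.30 (SE 0.24) and Mapre3, which tracks microtubule ends, at 0.15 (SE 0.18). Of 13 collapsin response mediator and growth cone genes, 9 were higher and 4 lower, with Basp1, a growth cone membrane protein, at 0.16 (SE 0.20) and Dpysl5 at -0.13 (SE 0.20). Of 9 transport motor genes 6 were higher, of 6 adhesion molecule genes all were higher, with a median of 0.07 and Ncam1 at 0.19 (SE 0.16) and Nfasc at 0.12 (SE 0.22), and of 7 kinase genes 3 were higher. Gsk3b, a kinase that phosphorylates tau and Map1b, differed by 0.20 (SE 0.17), Mark1 by -0.12 (SE 0.17) and the motor gene Kif3a by 0.12 (SE 0.15).

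**Figure D5:**
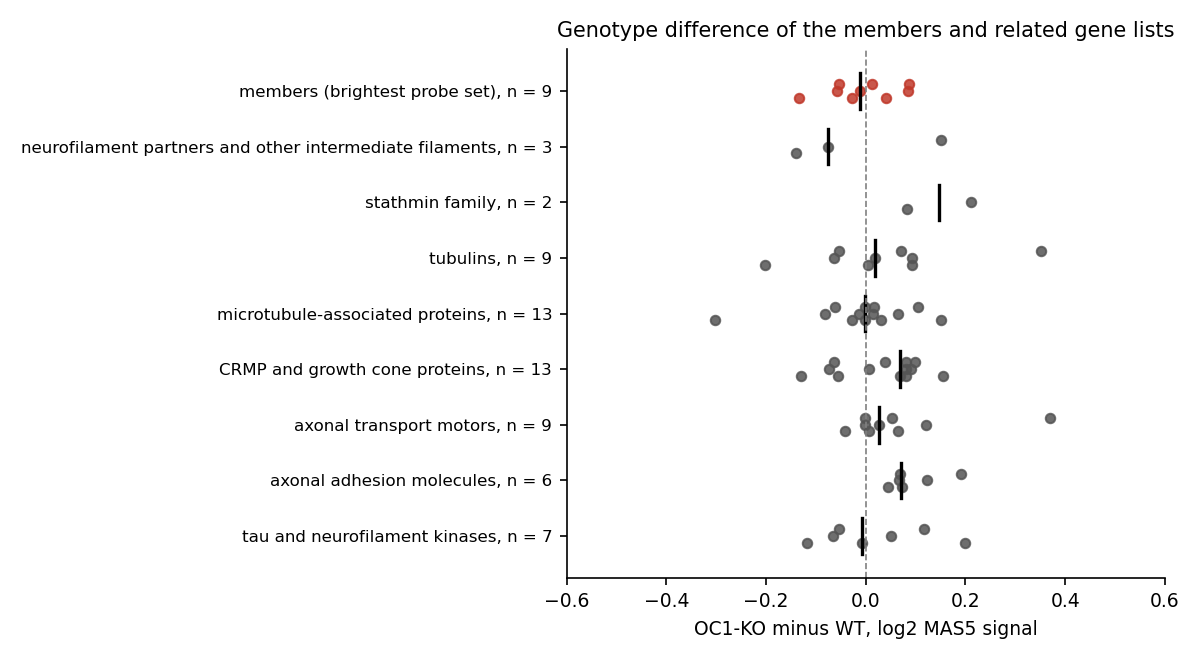
OC1-KO minus WT difference in log2 MAS5 signal for the members (brightest probe set of each of the 9 genes over the filter) and for the genes of 8 related lists, 1 point per gene, with a line at the median of each list. All 62 related genes lie within 0.37 of 0, and none passed the test.

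With embryo number, the F test called 1 of the 62, Tubb2b (limma F test adjusted p = 0.0429), beside 5.32% of all probe sets. This beta-tubulin of newborn neurons, named after its values were seen, gave 12.46, 12.67 and 13.61 in OC1-KO embryos 1 to 3, against 12.24, 12.96 and 13.72 in WT embryos 1 to 3. As for Nefm, embryo 3 was the highest in both genotypes. Both arrays numbered 3 lay above the other 4 for 20 of the 62 genes, beside 14.9% of all probe sets. Low values in embryos numbered 2 were not particular to the members. Both arrays numbered 2 lay below the other 4 for 6 of 13 growth cone genes, 3 of 9 tubulins and 3 of 9 transport motors. The same held for 2 of 3 intermediate filaments, 1 of 2 stathmins and 2 of 13 microtubule-associated proteins. It held for 1 of 6 adhesion molecules and 1 of 7 kinases, beside 11.3% of all probe sets.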

How the data were processed

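Retinal total RNA was extracted, amplified and biotin-labelled by the authors and hybridized with 1 array per embryo. The authors deposited a table of MAS5 signal intensity on a linear scale, made with the affy package and scaled on each array to a 2% trimmed mean of 500. No MAS5 version is given in the sources used. Log2 was taken here with no further scaling, and the number of arrays limits the precision.

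The array holds 45101 probe sets. Without its 64 controls, 20888 with a mean log2 signal over 7 in OC1-KO or WT were kept. Symbols came from the platform annotation, updated by Entrez ID (34741 probe sets of 1 gene matched, 204 not matched, 932 of several genes, 9160 of none). All probe sets of the 10 genes are named, with the 2 genes of smallest p from each related list and the 5 genes of most similar profile.

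The genotypes were set against each other with lmFit and eBayes of limma 3.58.1 (R 4.3.3), without an intensity trend, and p-values were adjusted over all 20888 probe sets by Benjamini-Hochberg. Embryo number was tested by the limma F test with genotype in the fit. Probe sets below the filter were read from a fit with all of them. The fits were tested on simulated data, with arrays drawn independently and planted differences larger than any of the members. This cannot tell how they handle differences of the members' size or arrays that deviate together. The closing section gives the alternatives and their effect.

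The embryo numbers pair the arrays: after removal of the group means, OC1-KO and WT embryos of the same number correlated at 0.509, 0.575 and 0.671, and those of different numbers at -0.438 to -0.037. The labels state no pairs, so this rests on the values. The members, lists and tests were chosen with earlier results of these data known. RefSeq sequences and positions are those of GRCm38.p6.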

Additional observations from a re-analysis of the deposited data

How the results depend on the processing

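Under no alternative did a member or any other probe set differ between OC1-KO and WT at an adjusted p under 0.05, and the smallest adjusted p of a member was 0.999. The count at an unadjusted p under 0.05, 210 over all probe sets, became 1305 with no filter on low signals, 117 with a filter at 8, 121 with an intensity trend, 398 in embryos numbered 1 and 2 alone, 913 with embryo number as a block and 316 with the methods' t-test, and was 175 to 378 with 1 array left out. Among the members it was 0, and 1 with quantile normalization, the filter at 8, the intensity trend and the block, or 0 to 1 with 1 array left out. For the related genes it was counted only under quantile normalization, median centring, embryos numbered 1 and 2 alone, the block and 1 array left out. There it was 0, or 1 with the block and 0 to 1 with 1 array left out. Among the marker genes the block put Pmel and Gad2 under 0.05 (0.00258 and 0.0193), and it changed no other call among the genes of the report. Pmel passed the filter through the OC1-KO mean alone, the genotype where it was higher, so its p is no independent test of that difference. The cause of these shifts was not tested.

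With 1 array left out the median difference of the members, 0.05, ran from -0.088 to 0.19 and that of the related genes, 0.03, from -0.022 to 0.083. Most member differences are smaller than the spread between embryos, and 14 of 17 changed sign when at least 1 array was left out. With 1 array left out they ran from -0.11 to 0.27 for Nefl 1426255_at, -0.056 to 0.17 for Nefl 1454672_at, -0.21 to 0.33 for Nefm, -0.13 to 0.19 for Stmn2 1423281_at, -0.050 to 0.36 for Stmn2 1423280_at, -0.020 to 0.034 for Stmn3 1435113_x_at and -0.014 to 0.14 for Stmn3 1460181_at. They ran from -0.22 to 0.14 for Gap43, -0.20 to 0.10 for Tubb3, -0.088 to 0.012 for Dcx 1418139_at, -0.057 to 0.53 for Dcx 1418141_at, -0.14 to 0.21 for Mapt 1424719_a_at, -0.12 to 0.36 for Mapt 1417885_at and -0.34 to 0.37 for Map1b 1450397_at. The other 3 kept their sign: Mapt 1424718_at at -0.27 to -0.02, Mapt 1455028_at at 0.03 to 0.28 and Map1b 1421851_at at 0.29 to 0.54. Quantile normalization turned Nefl 1454672_at to -0.013, Stmn2 1423281_at to -0.022 and Stmn3 1435113_x_at to -0.027. In embryos numbered 1 and 2 alone Nefl 1454672_at was -0.089, Stmn3 1435113_x_at -0.011 and Stmn3 1460181_at -0.027. Median centring gave 0.0010 for Gap43, and the median of the probe sets of a gene gave 0.11 for Dcx, 0.056 for Mapt and 0.19 for Map1b.

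The embryo number calls moved more. Over all probe sets the count of 1111 was 0 with no filter, 2308 with the filter at 8, 4106 with the intensity trend, 2369 without the genotype term, 6 in embryos numbered 1 and 2 alone, and 0 to 1481 with 1 array left out. Among the members it was 2, and 0 with quantile normalization, with no filter, in embryos numbered 1 and 2 alone, with the median of the probe sets of a gene or with any 1 array left out, against 4 with the filter at 8 and 6 with the intensity trend. Leaving out 1 array leaves fewer residual degrees of freedom. The alternatives that left out arrays or the embryos numbered 3 were added to the embryo number test after the data were seen.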
